A study of Drosophila melanogaster with 24 samples.

Results

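The maltase and amylase genes of Drosophila melanogaster are the digestive enzymes of starch and maltose: 8 clustered maltase genes, Mal-A1 to Mal-A8, and the amylase pair Amy-p and Amy-d. They were taken by symbol, 10 genes of the 17830 in the tables with FlyBase identifiers and of the 17136 annotated genes in the tables with assembled loci, and all 10 were found in all 24 libraries. The series sequenced RNA to ask how intestinal stem cells change with age, and after changes to ADAR, which edits adenosines in RNA, or to Zn72D, a zinc-finger protein. Of its 7 groups, 3 with 4 libraries each are labelled midgut: Adar IR (an RNA interference knockdown of Adar) at 10 days, lacZ at 30 days and lacZ at 10 days, all named for the driver esgts. The other 4, with 3 libraries each, carry the tissue label whole organism: Zn72d-IR (a knockdown), its WT control, flies labelled as overexpressing E374A, an ADAR mutant, and their labelled WT control. For these 4 the labels give no age or driver, and for no group do they give the sex or say whether replicates are separate pools of flies, so each p-value measures the spread between libraries, which may be technical. The stated extraction protocol, shared by all libraries, is for midgut stem cells sorted by flow cytometry.

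Alpha-amylase cuts starch and glycogen inside the chain and releases maltose and short glucose chains. Maltases, which are alpha-glucosidases, then split these into glucose. In the fly both are made mainly by enterocytes, the absorptive cells of the midgut, and dietary sugar is known to repress amylase. The esg driver is active in the stem cells and enteroblasts from which enterocytes arise. Which cells of the sorted libraries held the RNA of these genes was not tested. Levels are in TPM, a measure of transcript abundance scaled for transcript length and library size, so that genes can be compared within a library.

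On build dm6 the maltase genes lie side by side on chromosome 2R within 24298 bases, and all are protein coding. Mal-A1 (FBgn0002570) spans 8449664 to 8451904 on the minus strand with 3 exons, and encodes 577 amino acids. Mal-A2 (FBgn0002569) follows at 8453627 to 8455782 and Mal-A3 (FBgn0002571) at 8455909 to 8457892. Mal-A4 (FBgn0033294) lies at 8458815 to 8460884, Mal-A5 (FBgn0050359) at 8462753 to 8465092 and Mal-A6 (FBgn0050360) at 8465158 to 8467595. Mal-A7 (FBgn0033296) at 8468646 to 8471663 and Mal-A8 (FBgn0033297) at 8471954 to 8473961 close the row. Of the 8, 5 are on the plus strand and 3 on the minus strand, and neighbours are 65 to 1868 bases apart. The amylase genes lie elsewhere on 2R, Amy-p (FBgn0000079) at 17118636 to 17120303 on the minus strand and Amy-d (FBgn0000078) at 17124764 to 17126369 on the plus strand. Each has 1 exon and encodes 494 amino acids, and the copies are 4460 bases apart. Because they are near-identical, the split of reads between Amy-p and Amy-d is uncertain, and their sum is given beside them. The strand setting of the counting is not given in the sources used here; Mal-A1 overlaps Cyp4e1 on the opposite strand by 82 bases, and Mal-A8 overlaps mtt by 6 bases.

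Several libraries had features that touch the results. Adar was at 7.78 to 23.5 TPM in the Adar knockdown libraries, against 29.2 to 45.7 TPM in the 10-day lacZ libraries. In 30-day lacZ libraries 1 to 4 it was at 38.1, 19.5, 21.3 and 23.0 TPM, which overlapped the knockdown libraries. Zn72D was at 10.6, 17.9 and 16.0 TPM in Zn72d knockdown libraries, against 18.6, 18.1 and 16.9 TPM in controls. In the E374A set Adar went against the titles, at 17.2, 14.5 and 15.8 TPM in the labelled overexpression libraries and 879, 801 and 31.5 TPM in labelled controls 1, 2 and 3. The labelled overexpression libraries shared coverage, equal within 0.1%, with the same-numbered Zn72d control at 83.2 to 83.6% of genes, against at most 0.383% for any other pair; 8 of the 10 genes here were equal in all 3 pairs, and Amy-p and Amy-d were not. Labelled control 3 ranked its genes most like 10-day lacZ library 4 (Spearman 0.974), and at most 0.532 like any other library labelled whole organism. The progenitor markers (esg, Sox21a, mira and 6 others) summed to 1016 to 2615 TPM in the midgut libraries, to 1183 TPM in labelled control 3, and to 49.3 to 71.8 TPM in the remaining libraries labelled whole organism. The estimated depth was 3.36 to 6.59 gigabases of aligned sequence in the 13 libraries with assembled loci, and 5.44 to 7.48 in the other 11; the tables of these kinds were normalized separately, so levels set across them were not tested.

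In the midgut libraries the members were low and varied widely from library to library. Their sum came to 280 ± 151 TPM (SD, n = 4) after Adar knockdown, 254 ± 104 TPM (n = 4) in 30-day lacZ and 57.6 ± 20.4 TPM (n = 4) in 10-day lacZ libraries. Amy-p had the highest mean in all 3 groups, at 81.4 ± 52.6 TPM after Adar knockdown, 76.0 ± 39.1 TPM at 30 days and 15.7 ± 8.95 TPM at 10 days. In the Adar knockdown libraries Mal-A1, Amy-d, Mal-A8, Mal-A6 and Mal-A4 followed in that order of mean, and Mal-A2, Mal-A3, Mal-A7 and Mal-A5 averaged 5.97, 4.04, 3.50 and 2.86 TPM. In the 30-day lacZ libraries Mal-A6 at 19.1 ± 5.61 TPM and Mal-A2 at 7.65 ± 4.62 TPM were the neighbours in the order whose libraries did not overlap; all other neighbours there, and all neighbours in both 10-day groups, overlapped. In the 10-day lacZ libraries Mal-A6, at 10.6 ± 5.80 TPM, took the first place among the maltases ahead of Mal-A1, at 7.51 ± 6.90 TPM, and the least abundant was Mal-A7, at 0.863 ± 0.834 TPM. Read coverage of Mal-A7 in the midgut libraries was 0.322 to 32.1 per base and that of Amy-p 11.5 to 333, so values of the least abundant maltases rest on few reads.

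**Figure D1:**
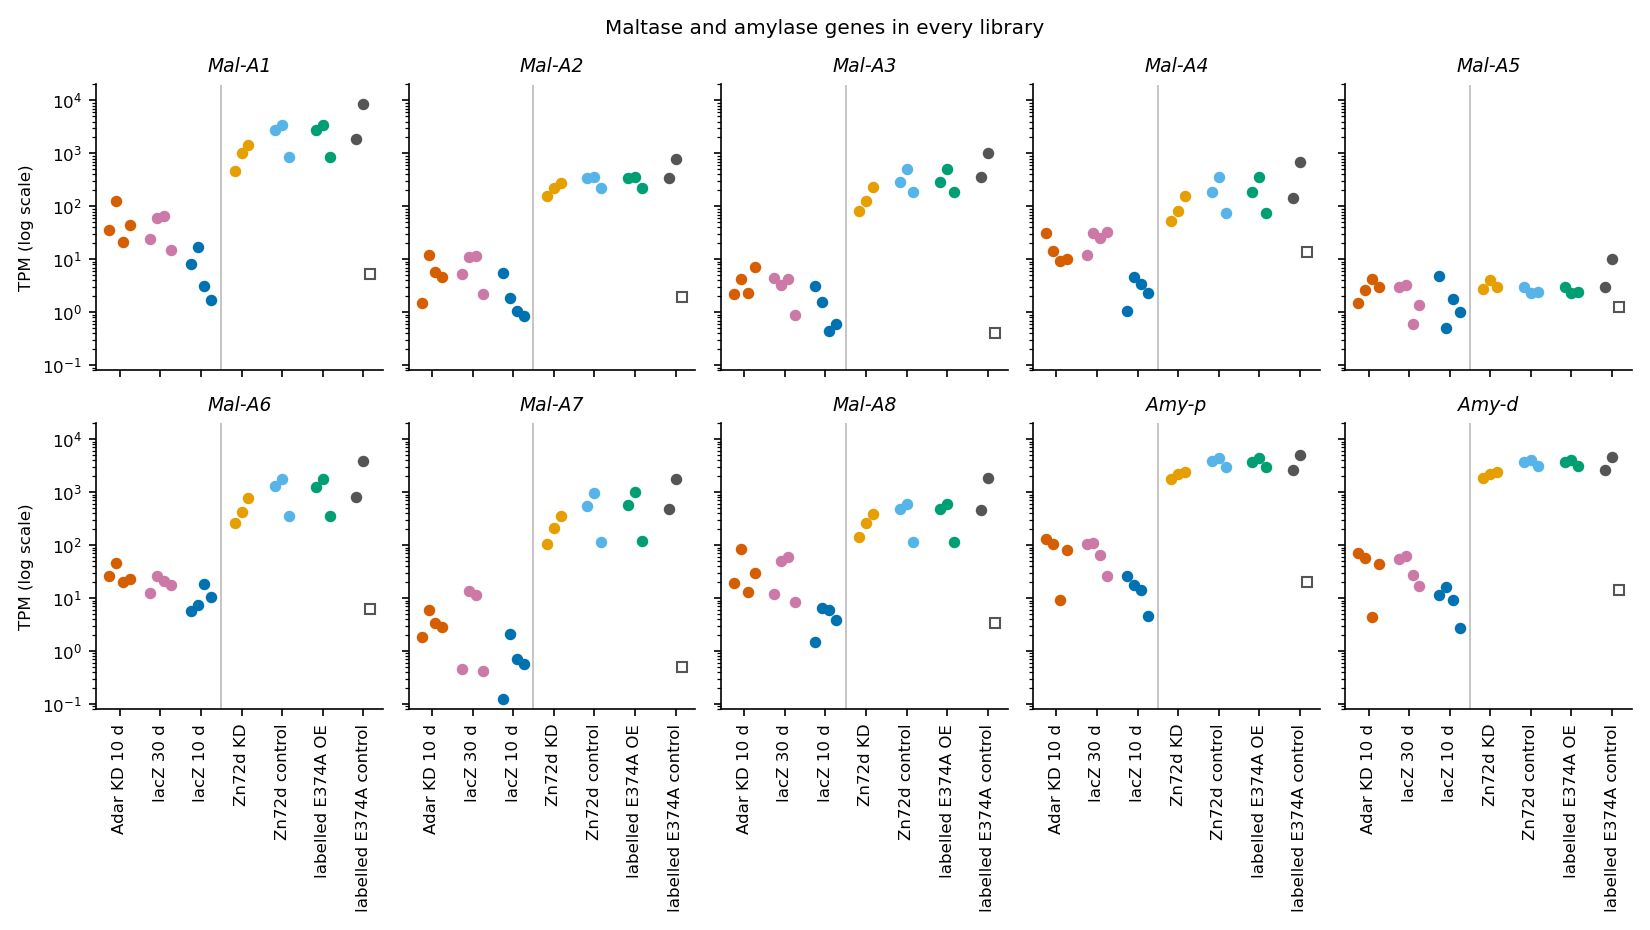
TPM of each gene (log axis) in every library, with groups along the horizontal axis and a grey line between the midgut groups and the groups labelled whole organism. Each point is 1 library, and the open square is labelled E374A control 3, which held 5.18 TPM of Mal-A1 where labelled controls 1 and 2 held 1854 and 8731 TPM.

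The first comparison asked which of these genes differ between 30 and 10 days of age in lacZ flies. Of the 10 members, 3 rose with age, the maltases Mal-A4, Mal-A1 and Mal-A8, and none fell, by limma on log2(TPM + 1) with Benjamini-Hochberg adjustment over all 8745 genes tested. Over all genes 4.23% were called higher and 15.4% lower. The fold was above 0 for 10 of 10 members (9 of 10 after quantile normalization, where Mal-A5 was at -0.042), with a median log2 fold change of 1.67 against -0.32 over all genes tested. The median shift of all genes was removed by median-ratio scaling, under which 561 genes (6.41%) were called higher and 219 (2.5%) lower, against 370 and 1346 without it. In these bulk libraries fewer cells of a type and less RNA per cell cannot be told apart.

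Mal-A4 showed the clearest separation with age. It was at 12.2, 31.0, 25.7 and 32.5 TPM in 30-day lacZ libraries 1 to 4, against 1.05, 4.67, 3.37 and 2.32 TPM in 10-day lacZ libraries 1 to 4. Every 30-day library was above every 10-day library. Its log2 fold change was 2.79 ± 0.42 (SE, limma adjusted p = 0.00384), and the call held under every alternative tried, with adjusted p between 0.00238 and 0.0169. Fold changes on this scale understate the change of genes near 1 TPM.

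Mal-A1 was at 24.3, 60.9, 65.4 and 14.7 TPM in the 30-day lacZ libraries, against 8.34, 16.9, 3.09 and 1.68 TPM in the 10-day lacZ libraries. The groups overlapped, since 10-day library 2 was above 30-day library 4. The log2 fold change was 2.45 ± 0.66 (limma adjusted p = 0.0246), and the adjusted p was 0.0674 and 0.0699 without 30-day library 2 or 3, and 0.0743 and 0.0688 without 10-day library 3 or 4. Mal-A8 was at 11.7, 49.4, 59.0 and 8.59 TPM in the 30-day lacZ libraries, against 1.46, 6.40, 5.86 and 3.92 TPM in the 10-day lacZ libraries. Here the groups did not overlap, and 30-day libraries 2 and 3 were again the high ones. Its log2 fold change was 2.31 ± 0.65 (limma adjusted p = 0.0282). The call was lost without 30-day library 2 or 3 (adjusted p = 0.0813 and 0.0835) and without 10-day library 1, 3 or 4 (adjusted p = 0.0646, 0.0534 and 0.0665).

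The other maltases did not pass the test with age. Mal-A6 was at 12.2 to 25.7 TPM in the 30-day lacZ libraries and at 5.77 to 18.8 TPM in the 10-day lacZ libraries, with a log2 fold change of 0.87 ± 0.35 (limma adjusted p = 0.0896); without 10-day library 3, its highest 10-day library, the adjusted p was 0.0461, and median-ratio scaling gave 0.0404. Mal-A2 had a log2 fold change of 1.37 (limma adjusted p = 0.0946, and 0.0453 without 10-day library 1). Mal-A7 split the 30-day lacZ group, at 0.46, 13.5, 11.5 and 0.42 TPM, against 0.13, 2.06, 0.71 and 0.56 TPM in 10-day lacZ libraries. Its 30-day libraries 2 and 3 stood above all 10-day libraries and its libraries 1 and 4 below most of them (limma adjusted p = 0.182). Mal-A3 and Mal-A5 had log2 fold changes of 0.82 and 0.10 (limma adjusted p = 0.200 and 0.880).

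Both amylase genes had large fold changes with age that missed the threshold. Amy-p and Amy-d together were at 162, 172, 91.7 and 42.9 TPM in the 30-day lacZ libraries, against 37.7, 34.1 and 23.1 TPM in 10-day lacZ libraries 1 to 3 and 7.42 TPM in library 4. All 30-day libraries were above all 10-day libraries for the sum and for Amy-d, and for Amy-p 30-day library 4, at 25.8 TPM, was just below 10-day library 1, at 26.3 TPM. The log2 fold change of the sum was 2.17 ± 0.79 (limma adjusted p = 0.0676), of Amy-p 2.22 ± 0.77 (0.0591) and of Amy-d 1.96 ± 0.76 (0.0829). All of these passed when the Adar knockdown libraries were left out of the fit (adjusted p = 0.0243, 0.0222 and 0.0279). In all, 3 of the 10 members (Mal-A4, Mal-A8 and Amy-d) did not overlap between the groups, against 5.76% of all genes in this direction.

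The next comparison asked what Adar knockdown changed at 10 days of age, against the same 4 lacZ libraries, so that its values and those with age share their controls. Of the 10 members 4 rose, the maltases Mal-A1, Mal-A4, Mal-A6 and Mal-A8, and none fell, where 3.74% of all genes were called higher and 16.0% lower. After median-ratio scaling these were 449 higher (5.13%) and 114 lower (1.3%), against 327 and 1395. The median log2 fold change was 1.57 over the members and -0.39 over all genes. The same 4 maltases did not overlap between the groups, where 3.91% of all genes did not overlap in this direction.

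Mal-A1 was at 36.1, 124, 21.7 and 43.7 TPM in Adar knockdown libraries 1 to 4, against at most 16.9 TPM in the 10-day lacZ libraries. All knockdown libraries lay above the controls, and library 2 was far above its own group. Its log2 fold change was 2.83 ± 0.66 (limma adjusted p = 0.0159, and 0.0579 and 0.0535 without 10-day lacZ library 3 or 4). Mal-A8 was at 19.5, 82.9, 13.1 and 29.9 TPM after Adar knockdown, against at most 6.40 TPM in the 10-day lacZ libraries. It had the same high library, and its log2 fold change was 2.56 ± 0.65 (limma adjusted p = 0.0205). That call was lost without Adar knockdown library 2 (adjusted p = 0.0527) and without 10-day lacZ library 3 or 4 (adjusted p = 0.0522 and 0.0602).

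Mal-A4 was at 31.3, 14.5, 9.51 and 10.1 TPM after Adar knockdown, against at most 4.67 TPM in 10-day lacZ libraries. Its high library was number 1, not number 2. It rose by a log2 fold change of 2.11 ± 0.42 (limma adjusted p = 0.00997), and it passed in every alternative, at adjusted p between 0.00624 and 0.0353. Mal-A6 was at 25.7, 45.7, 20.1 and 22.7 TPM after Adar knockdown, against 5.77, 7.38, 18.8 and 10.6 TPM in the 10-day lacZ libraries. The lowest knockdown library was just above the highest control. For Mal-A6 the log2 fold change was 1.40 ± 0.35 (limma adjusted p = 0.0198, and 0.0527 without Adar knockdown library 2 or 0.0526 without 10-day lacZ library 4).

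The amylase sum was at 203, 163 and 123 TPM in Adar knockdown libraries 1, 2 and 4 and at 13.6 TPM in library 3, against 7.42 to 37.7 TPM in the 10-day lacZ libraries. Library 3 lay within the range of the controls and the other libraries lay above that range. Adar itself was at 23.5 TPM in library 3, against 16.0, 11.2 and 7.78 TPM in libraries 1, 2 and 4, and its part in the amylase values was not tested. For the sum the log2 fold change was 1.94 ± 0.79 (limma adjusted p = 0.0927), and without Adar knockdown library 3 it was 2.81 (adjusted p = 0.00871). In that same library Mal-A1, at 21.7 TPM, and Mal-A6, at 20.1 TPM, stayed above every control. The ratio of the amylase sum to the maltase sum was 0.17 in Adar knockdown library 3 and 1.69, 0.56 and 0.99 in libraries 1, 2 and 4, against 0.35 to 1.25 in 10-day lacZ libraries. The remaining maltases did not pass: Mal-A2, Mal-A3, Mal-A5 and Mal-A7 had log2 fold changes of 1.03, 1.07, 0.50 and 1.29 (limma adjusted p = 0.188, 0.102, 0.424 and 0.189). Without 10-day lacZ library 1 Mal-A3 was called, at a log2 fold change of 1.36 (adjusted p = 0.0455).

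Set directly against each other, Adar knockdown at 10 days and lacZ at 30 days did not separate on any member by limma, with none called and none at an unadjusted p under 0.05, where 0.469% of all genes were called. The log2 fold changes of Adar knockdown against 30-day lacZ ran from -0.68 for Mal-A4, with a 95% interval of -1.58 to 0.23, to 0.53 for Mal-A6, with an interval of -0.22 to 1.28. For the amylase sum the groups held 126 ± 81.5 TPM after Adar knockdown and 117 ± 60.9 TPM at 30 days (SD, n = 4 each). These intervals leave room for differences of more than 1 log2 unit in most members, so similar levels were not shown.

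**Figure D2:**
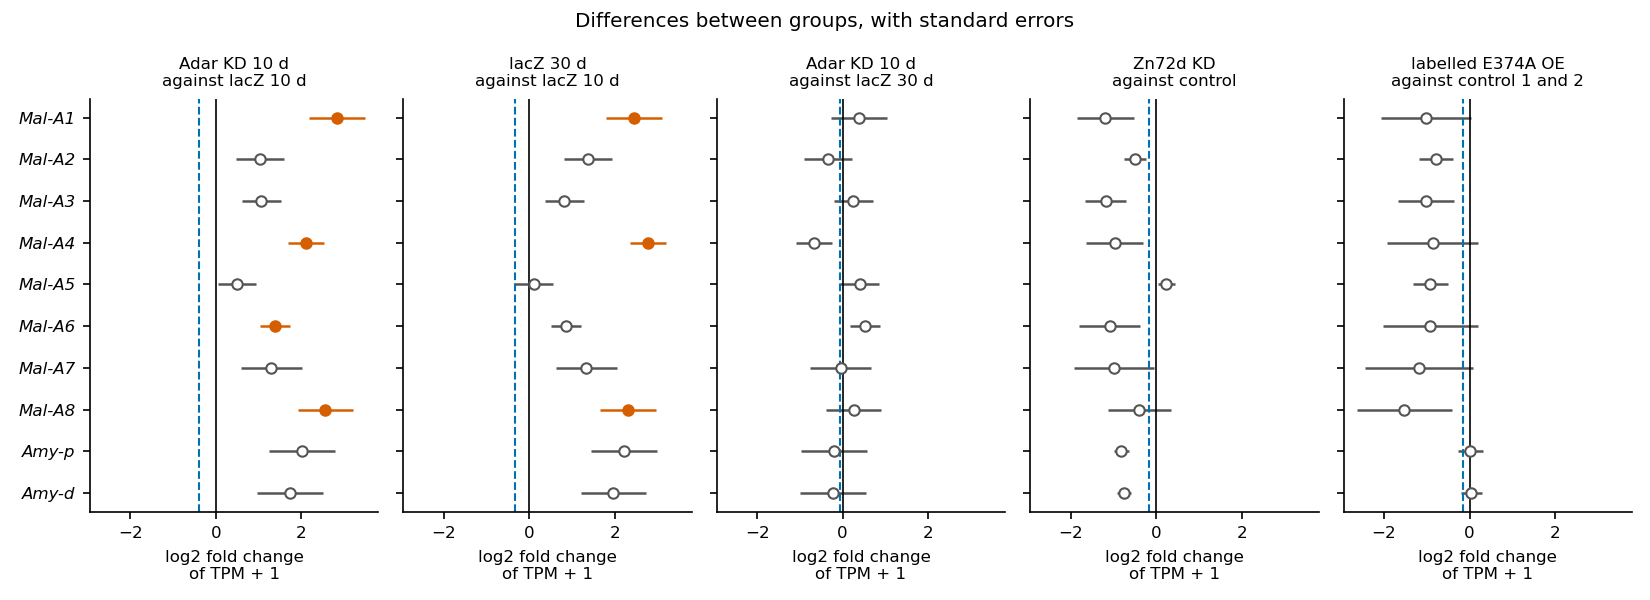
Log2 fold change of TPM + 1 (horizontal axis) for each gene, with standard errors as bars, in 5 comparisons. Filled orange points passed the adjusted threshold of 0.05, open points did not, and the dashed line is the median of all genes tested; only the comparisons with 10-day lacZ have filled points.

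Other genes of carbohydrate digestion and use were examined beside the members. Of 5 related carbohydrases 2 were tested in the midgut, and tobi, an alpha-glucosidase-like gene that responds to diet, was higher at 30 days (3.55 TPM, against 0.530 TPM at 10 days; limma adjusted p = 0.0496) and after Adar knockdown (7.12 TPM; adjusted p = 0.0184). None of 5 glycogen genes passed with age by limma (none at an unadjusted p under 0.05). After Adar knockdown 2 of the 5 were lower, the glycogen phosphorylase gene Glyp (45.5 TPM, against 70.9 TPM in 10-day lacZ) and the glycogenin gene Gyg (11.6 TPM, against 23.8 TPM). The median log2 fold change of the 5 was -0.32, against -0.39 over all genes, of which 16.0% were called lower (1.30% after median-ratio scaling). Of 12 sugar-sensing genes put, a receptor of the TGF-beta family, was lower at 30 days (limma adjusted p = 0.0493), and babo, bigmax and cbt were lower after Adar knockdown (adjusted p = 0.0489, 0.0306 and 0.0336). These are 1 of 12 with age and 3 of 12 after Adar knockdown, where 15.4% and 16.0% of all genes were called lower. The count with age is not above that share, and the count after Adar knockdown was not tested against it. After median-ratio scaling 2.5% and 1.3% of all genes were called lower. The median log2 fold change of the 12 after Adar knockdown was -0.65, against -0.39 over all genes. Babo is the Activin receptor, and bigmax the partner of the sugar-responsive factor Mondo. Of 13 glycolysis genes the lactate dehydrogenase gene Ldh was higher at 30 days (1617 TPM, against 445 TPM at 10 days; adjusted p = 0.0168) and none passed after Adar knockdown by limma (2 at an unadjusted p under 0.05). Of 5 sugar transporters tested none passed with age (2 at an unadjusted p under 0.05), and nebu was lower after Adar knockdown (3.56 TPM, against 14.7 TPM, limma adjusted p = 0.0152). Beside tobi and Ldh, 4.23% of all genes were called higher with age and 3.74% after Adar knockdown. Beside nebu, 16.0% of all genes were called lower after Adar knockdown.

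Digestive enzymes of other classes were counted in the same comparisons. Of 28 tested serine proteases and lysozymes none passed with age by limma (4 at an unadjusted p under 0.05), and 10 were higher after Adar knockdown, 6 of them trypsins (alphaTry, etaTry, iotaTry, kappaTry, lambdaTry and zetaTry) and 3 the lysozymes LysB, LysD and LysE, close copies between which reads may be split. Over all genes 4.23% were called higher with age and 3.74% after Adar knockdown. Whether the comparisons differ from each other was tested only through Adar knockdown against 30-day lacZ, where none of the 28 passed (12 at an unadjusted p under 0.05). The summed level of all 36 listed enzymes was 423 to 1893 TPM after Adar knockdown, 165 to 1047 TPM at 30 days and 64.7 to 863 TPM at 10 days. Its lowest Adar knockdown library was number 3, which was also lowest for amylase.

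Some cell type markers moved with the members. The 6 enterocyte markers (nub, Myo31DF, mex1, Ssk, mesh and Tsp2A), none at or under 1 TPM, summed to 464 to 1488 TPM after Adar knockdown and 619 to 1025 TPM at 30 days, against 257 to 437 TPM at 10 days. Of the 6, 4 rose with age and 3 with Adar knockdown, where 4.23% and 3.74% of all genes were called higher. At 30 days and after Adar knockdown mex1 was at 67.5 TPM, against 21.8 TPM in 10-day lacZ. Myo31DF did not pass with age, at 182 TPM at 30 days and 183 TPM at 10 days (limma adjusted p = 0.7945). After Adar knockdown the fold was above 0 for 5 of the 6. The 9 progenitor markers summed to 1016 to 1297 TPM after Adar knockdown and 1065 to 1452 TPM at 30 days, against 1509 to 2615 TPM at 10 days. Neither the enterocyte nor the progenitor sum overlapped between the 10-day lacZ libraries and the other midgut groups. Of 10 enteroendocrine markers 3 rose with age (AstC, CCHa1 and Mip), with a median log2 fold change of 1.51 over the list, and none was called after Adar knockdown by limma (1 at an unadjusted p under 0.05). Their sum overlapped between groups, at 490 to 940 TPM after Adar knockdown and 1063 to 1978 TPM at 30 days, against 300 to 2617 TPM at 10 days. Of 3 copper cell markers Vha100-4 was higher and lab lower with age (limma adjusted p = 0.0189 and 0.0457), and 1 was higher after Adar knockdown. The part of all these markers in the rise of the maltases was not tested. The 10-day lacZ library 1 stood apart in other ways, with an enteroendocrine marker sum of 2617 TPM, against 300 to 308 TPM in 10-day libraries 2 to 4, and a fat body and yolk marker sum of 150 TPM, against 0.454 to 1.80 TPM. Without it Mal-A4 and Mal-A1 kept their calls in both comparisons with 10-day lacZ, and Mal-A8 lost its call with age (adjusted p = 0.0646). Mal-A2 then passed with age (adjusted p = 0.0453) and Mal-A3 after Adar knockdown (adjusted p = 0.0455).

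In the libraries labelled whole organism the same genes were far more abundant. Over the 8 distinct libraries of this kind (the Zn72d set with labelled E374A controls 1 and 2) the amylase sum had a median of 5705 TPM, against 67.3 TPM over the 12 midgut libraries, an 84.8-fold difference in level that was not tested. Mal-A1 had a median of 1634 TPM, against 23.0 TPM in the midgut libraries. The ratio of medians was largest for Mal-A7, at 211, and 13.4 for Mal-A4. Mal-A5 was the exception, at 3.03 TPM (range 2.33 to 10.3), against 2.23 TPM (range 0.511 to 4.87) in the midgut libraries. It lies 65 bases from Mal-A6, which had a median of 791 TPM in these libraries, against 19.5 TPM in the midgut libraries. In the same libraries the 9 muscle markers summed to 1328 to 2372 TPM, against 2.11 to 48.1 TPM in the midgut libraries. The 3 neuron markers went the other way, at 2.22 to 4.02 TPM, against 21.4 to 99.1 TPM in the midgut libraries. So did the 3 haemocyte markers, at 0.351 to 1.49 TPM, against 2.10 to 28.2 TPM. Which tissues these libraries hold was not tested. The other digestive enzymes summed to 242070 to 305000 TPM in the Zn72d libraries.

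**Figure D3:**
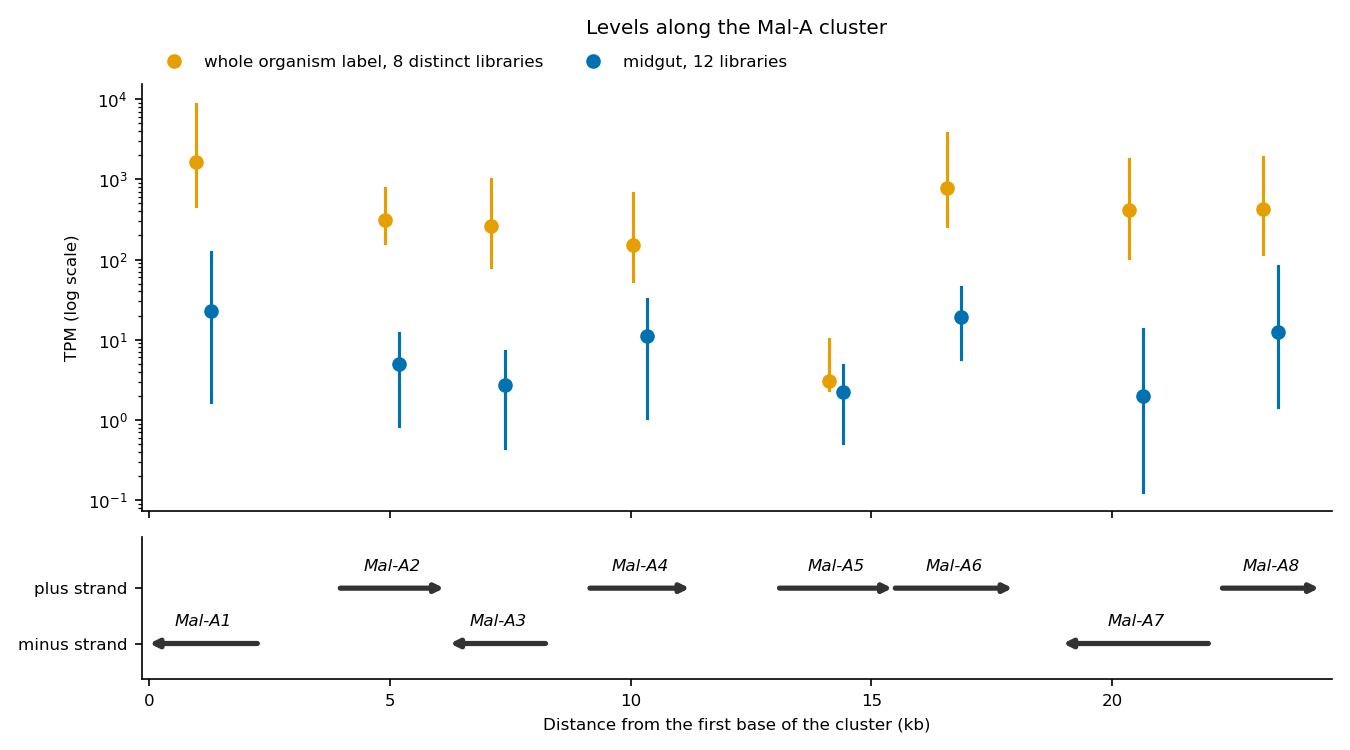
Median TPM (log axis) of the 8 maltase genes with bars from the lowest to the highest library, placed by distance from the first base of the cluster in kb, above arrows for each gene's strand and extent. Mal-A5, between neighbours that differ 13.4-fold and 40.7-fold between the kinds of library, had a median of 3.03 TPM in the libraries labelled whole organism, against 2.23 TPM in the midgut libraries.

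The Zn72d-IR libraries, called knockdown here by their label although Zn72D itself overlapped between the groups, were compared with their own controls. No member passed by limma, while 3 were at an unadjusted p under 0.05 (Amy-d, Amy-p and Mal-A3). Over all 8478 genes 2.12% were called. Amy-p was at 1798, 2206 and 2417 TPM in Zn72d knockdown libraries 1 to 3, against 3812, 4455 and 3043 TPM in controls 1 to 3. Amy-d was at 1859, 2249 and 2406 TPM in the knockdown libraries, against 3762, 4028 and 3122 TPM in the controls. Every knockdown library was below every control for both copies, which was so for 19.8% of all genes in this direction. The log2 fold change of the sum was -0.78 ± 0.17 (limma adjusted p = 0.0545), of Amy-p -0.81 ± 0.18 (0.0622) and of Amy-d -0.74 ± 0.16 (0.0544). Without Zn72d knockdown library 3, the highest of its group, the sum passed at a log2 fold change of -0.86 (adjusted p = 0.0445).

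Some maltases spread more than the amylases within these groups. Mal-A1 was at 471, 1012 and 1413 TPM in Zn72d knockdown libraries, against 2736, 3422 and 846 TPM in the controls. Control 3 was below both knockdown libraries 2 and 3, and the log2 fold change was -1.18 ± 0.67 (limma adjusted p = 0.363). Within the 3 controls the highest library was 4.04-fold the lowest for Mal-A1 and 8.60-fold for Mal-A7, but 1.63-fold for Mal-A2 and 1.31-fold for Mal-A5, beside 1.46-fold for Amy-p and 1.29-fold for Amy-d. Control 3 was the lowest for Mal-A1, Mal-A2, Mal-A3, Mal-A4, Mal-A6, Mal-A7 and Mal-A8 at once, and its amylase to maltase ratio was 3.20, against 1.29 and 1.06 in controls 1 and 2. In the knockdown libraries that ratio was 2.87, 1.89 and 1.34. The log2 fold change was below 0 for 9 of 10 members, and 0.23 for Mal-A5. The median was -0.89 over the members and -0.17 over all genes.

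The related gene Mal-B1, a maltase of another cluster, was higher in Zn72d knockdown libraries (2.20 TPM, against 0.112 TPM in controls), with a log2 fold change of 1.49 ± 0.24 (limma adjusted p = 0.0204). It was the one of 5 related carbohydrases that passed. Of 36 other digestive enzymes 3 lysozymes (LysC, LysP and LysS) were higher and mag, a lipase gene, and the proteases Jon44E, Jon74E and Jon99Fii were lower. Over all genes 2.12% were called in either direction. None of the glycogen, sugar transport, sugar-sensing and glycolysis genes passed by limma (1, 0, 1 and 0 at an unadjusted p under 0.05). The enterocyte markers summed to 2581 to 2933 TPM in Zn72d knockdown libraries and 2128 to 2767 TPM in controls, with none of 6 called (2 at an unadjusted p under 0.05). The fat body and yolk markers summed to 142 to 175 TPM in the knockdown libraries, against 41.3 to 85.0 TPM in controls. The muscle markers summed to 1826 to 2223 TPM in the knockdown libraries, against 1555 to 1703 TPM in controls, and the copper cell markers to 159.6 to 259.6 TPM, against 259.7 to 287.7 TPM in controls. None of the 4, 8 and 3 tested genes of these lists was called by limma (4, 2 and 1 at an unadjusted p under 0.05), and their part in the amylase values was not tested.

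In the set labelled E374A the members were compared between labelled overexpression and labelled control libraries, with the doubts about these titles given above. The labelled overexpression libraries repeat the Zn72d controls, with Mal-A1 at 2709, 3396 and 839 TPM. Labelled controls 1, 2 and 3 held 1854, 8731 and 5.18 TPM of Mal-A1, and 5245, 9635 and 34.3 TPM of the amylase sum. Control 2 was the highest of all 24 libraries for 10 of 10 members. Control 3 lay within the range of the 10-day lacZ midgut libraries for the maltase sum and the amylase sum but not for Mal-A4 and Mal-A3. Its Mal-A4 was above that range, at 13.5 TPM, against 1.05 to 4.67 TPM in 10-day lacZ. Its Mal-A3 was just below, at 0.407 TPM, against 0.450 to 3.13 TPM. Over all 6 libraries the log2 fold change of Mal-A1 was 2.09 ± 2.67 and of the amylase sum 2.58 ± 2.12, and no member passed by limma or had an unadjusted p under 0.05, where 0.318% of all genes were called. Without labelled control 3 the fold change of Mal-A1 was -1.03 ± 1.05 and of the amylase sum 0.03 ± 0.27, again with no member called or at an unadjusted p under 0.05, where 3.81% of genes were called. The 95% interval for the amylase sum was then -0.59 to 0.64, and for Mal-A8 -4.71 to 1.66, so only for amylase was the difference bounded within 1 log2 unit. Without labelled control 3, Mal-B1 was lower in the labelled overexpression libraries (log2 fold change -3.29 ± 0.50, limma adjusted p = 0.0139). It averaged 0.111 TPM there, against 12.2 TPM in labelled controls 1 and 2. With labelled control 3 it was not called (limma adjusted p = 0.583). As the labelled overexpression libraries repeat the Zn72d controls, this call and that of Mal-B1 in the Zn72d set share their low group and are not separate results. The fat body and yolk markers summed to 40.9 to 80.8 TPM in the labelled overexpression libraries, against 59.0 and 974 TPM in labelled controls 1 and 2, and their part in these values was not tested.

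The make-up of the maltase transcripts was set side by side across the kinds of library, without a test. Between the Zn72d and the midgut libraries the shares of Mal-A1, Mal-A4 and Mal-A6 overlapped, and those of Mal-A5 did not. Mal-A1 made up 36.9 to 43.0% of the summed maltase TPM in Zn72d knockdown libraries and 42.7 to 46.6% in Zn72d controls. In the midgut its share was 27.1 to 42.5% after Adar knockdown, 18.7 to 32.9% at 30 days and 7.80 to 40.9% at 10 days. Mal-A6 held 15.6 to 25.1% after Adar knockdown and 10.4 to 22.7% at 30 days, against 17.8 to 53.5% at 10 days, where it was the most abundant maltase in libraries 3 and 4. Mal-A4 held 12.9 to 41.4% at 30 days and 4.95 to 26.1% after Adar knockdown, against 3.46 to 11.3% at 10 days. Its median share was 16.1% at 30 days, 10.0% after Adar knockdown and 10.2% at 10 days. In the Zn72d set it held 3.44 to 4.35% after knockdown and 3.21 to 4.48% in controls. Mal-A5 held 0.0840 to 0.214% after Zn72d knockdown and 0.0291 to 0.125% in controls, and up to 16.1% in 10-day lacZ library 1.

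**Figure D4:**
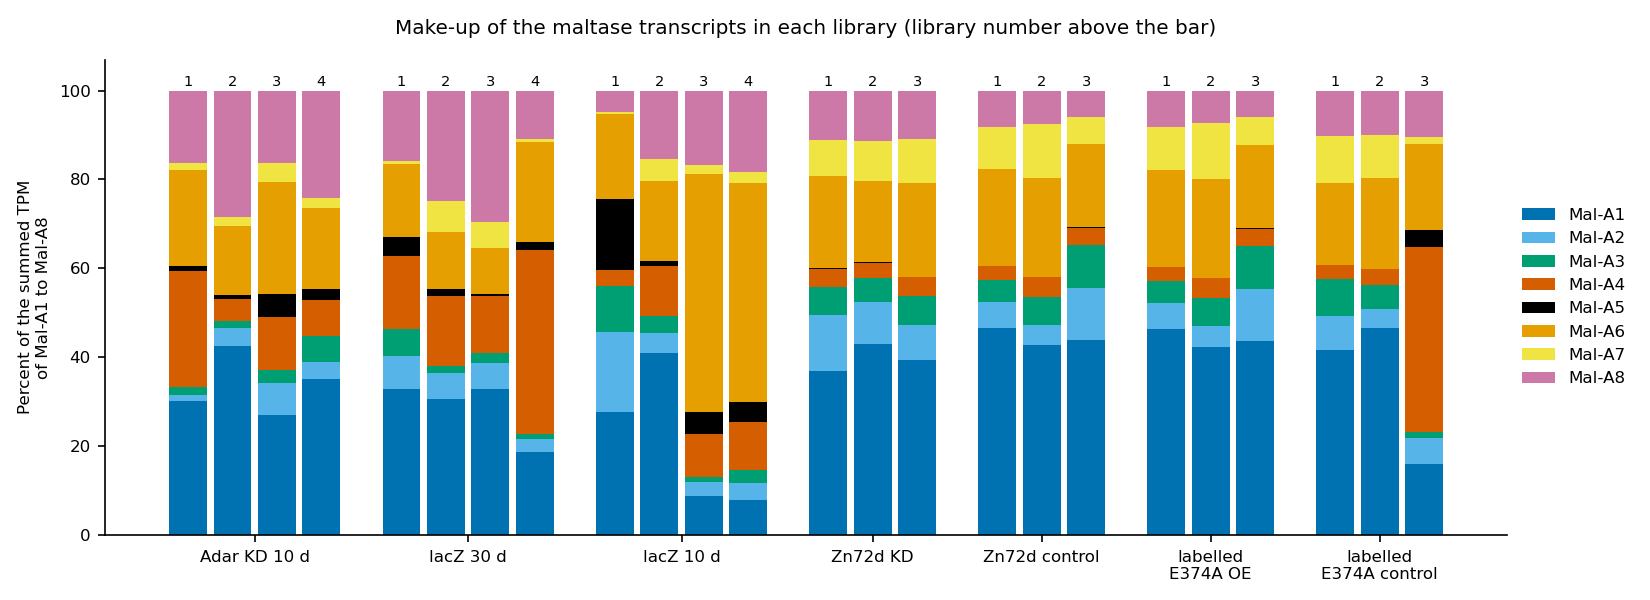
Share of each gene in the summed TPM of Mal-A1 to Mal-A8 (percent, vertical axis), 1 bar per library, grouped as named under the axis. The Zn72d bars resemble each other, with Mal-A1 at 36.9 to 46.6%, and the midgut bars vary, with Mal-A1 at 7.80 to 42.5%.

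The ratio of the amylase copies was mostly higher in the midgut libraries than in the Zn72d set, which was not tested. Amy-p exceeded Amy-d 1.83-fold to 2.10-fold after Adar knockdown, 1.51-fold to 2.33-fold at 30 days and 1.08-fold to 2.30-fold at 10 days. In the Zn72d set the ratio was 0.967, 0.981 and 1.005 after knockdown and 0.975 to 1.11 in controls. The 1.08 of 10-day lacZ library 2 lay within the range of these controls. Labelled E374A control 3, with 20.1 TPM of Amy-p and 14.3 TPM of Amy-d, had a ratio of 1.40, within the range of the 10-day lacZ libraries. How reads shared by the copies were assigned is not given in the sources used here, so these ratios may reflect the counting.

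The genes whose levels ran most like Amy-p were then listed, by the root mean square difference of centred log2(TPM + 1) profiles. Over the 12 midgut libraries Amy-d was nearest, at 0.28, where the profile of Amy-p itself had a root mean square of 1.48. The 8 nearest genes outside the members were Damm, CG10943, CG10912, CG10910, Jon65Aiii, CG9673, Fst and CG9568, at 0.61 to 0.74. Damm is a caspase gene and Jon65Aiii a digestive protease. Among the maltases Mal-A1 was nearest, at 0.94, in place 69 of 8744 genes, and Mal-A5 farthest, at 1.49 in place 1535. Over the 8 distinct libraries labelled whole organism Amy-d was again nearest, at 0.074, followed by crq, asRNA:CR44019, CG12942, CG7706, Nufip, Jhbp6, Cyp6t1 and pr at 0.088 to 0.13. There Mal-A1 was in place 7830 of 8544 genes, at 0.82, and Mal-A2 was the nearest maltase, at 0.34 in place 2358. The profile of Amy-p itself had a root mean square of 0.487 there. The measure grows with the size of a gene's swings as well as their direction, so a far place does not show opposite movement. Mal-A1 and Amy-p were both lowest in Zn72d knockdown library 1 and both highest in labelled E374A control 2. All points of a set share their tables' normalization, and the libraries labelled whole organism span groups of different genotype.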

How the data were processed

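RNA was sequenced on an Illumina NovaSeq, per the labels' protocols. The submitters' processing notes name STAR 2.7.1a, StringTie and build dm6. The StringTie version, the annotation release, strand and settings are not given there or in the file headers. The authors deposited 1 table per library with coverage, FPKM and TPM per gene: 13 tables with assembled loci and 11 with FlyBase identifiers. In the 13 tables the annotated genes summed to 881199 to 987040 TPM, and the assembled loci were listed on top of them. The whole TPM column summed to 1893225 in Adar knockdown library 1, where the annotated genes held 893225. The annotated sum was 881199 to 955176 TPM after Adar knockdown, 935996 to 950892 TPM at 30 days and 963356 to 984051 TPM at 10 days. The deposited coverage signal was used to compare libraries and, over the deposited FPKM, to estimate depth. Positions are those in the deposited tables, equal to the Ensembl annotation.

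Rows of a gene were summed. Tests used limma 3.58.1 (lmFit, eBayes with trend and robust variances; statmod 1.5.0) in R 4.3.3 on log2(TPM + 1), two-sided, for genes whose TPM averaged 1 or more over the fitted libraries, with p-values adjusted over all genes (threshold 0.05). The 3 midgut groups shared a fit; the Zn72d and E374A sets were fitted alone, without a replicate block. The steps were tested on simulated data. TPM are not counts, so no count test was run. All members, the called genes of the other lists (where they bear on the results) and the 8 genes most like Amy-p were named. The members and lists were chosen with earlier results of these data known. Alternatives changed the pseudocount, filter, scaling, block, libraries and the amylase copies. The fits with labelled E374A control 3 left out and median-ratio scaling together were chosen after seeing the data.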

Additional observations from a re-analysis of the deposited data

How the results depend on the processing

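Of the members' fold changes, 43 settings reversed a direction, and none of these was called. The cause was not tested. The number of members called with age was 1 with 10-day lacZ libraries 3 and 4 averaged or with no filter, and 5 in a fit of the 2 groups only; after Adar knockdown it was 2 with these libraries averaged or with no filter; in the Zn72d set it was 2 after quantile normalization. Leaving out 1 library at a time gave 1 to 3, 1 to 6 and 0 to 2 members called in these comparisons, and 0 in the others.

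Leaving out 1 library turned some fold changes that were not called. With age Mal-A5 ran from -0.17 to 0.48, and was -0.042 after quantile normalization. For Adar knockdown against 30-day lacZ the log2 fold changes ran from -0.62 to 0.63 for Amy-d, -0.64 to 0.63 for the amylase sum, -0.65 to 0.63 for Amy-p, -0.094 to 0.73 for Mal-A1, -0.75 to 0.066 for Mal-A2, -0.10 to 0.42 for Mal-A3, -0.59 to 0.53 for Mal-A7 and -0.25 to 0.69 for Mal-A8, and Mal-A7 was at 0.35, 0.077 and 0.012 with a pseudocount of 0.1, quantile normalization and rescaling. In the Zn72d set Mal-A8 ran from -1.13 to 0.042, above 0 only without control 2. In the labelled E374A set the maltases Mal-A1 to Mal-A8 ran in order from -1.03 to 4.21, -0.78 to 3.24, -1.01 to 3.73, -0.86 to 1.91, -0.92 to 0.24, -0.92 to 3.60, -1.18 to 3.94 and -1.53 to 2.84. There, without labelled control 3 and with median-ratio scaling, Mal-A1 to Mal-A4 were at -0.86, -0.62, -0.85 and -0.70, and Mal-A6 to Mal-A8 at -0.75, -1.02 and -1.36.

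Over all genes, 1716 were called with age, and 803 with the libraries averaged, 780 after median-ratio scaling, 1089 with no filter and 619 after quantile normalization (741 to 1853 leaving out a library). For Adar knockdown against 10-day lacZ 1722 were called, and 439, 563, 1046 and 389 under the same settings, 814 in a fit of the 2 groups only and 1042 with annotated genes rescaled to 1000000 (425 to 2094). Against 30-day lacZ 41 were called, and 23 with the libraries averaged, 10 with a mean TPM of at least 5, 21 with no filter and 24 with a pseudocount of 5 (14 to 65). For Zn72d 180 were called, 94 with a mean TPM of at least 5 and 88 with no filter (54 to 591). For labelled E374A 28 were called, 63 after median-ratio scaling, 45 with no filter and 62 after quantile normalization (0 to 321), and 506 after median-ratio scaling without labelled control 3.

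Replicate numbers did not pair the libraries throughout. Same-numbered deviations correlated at -0.30 to 0.23, and not every library deviated most like its own number. With age they correlated at 0.23, 0.12, -0.077 and 0.22 for numbers 1 to 4, against at most -0.090, 0.020, 0.20 and 0.15 with another number. For Adar knockdown against 10-day lacZ they correlated at -0.21, -0.070, 0.22 and -0.30, against at most 0.24, 0.059, 0.27 and 0.37. With the replicate block 5 members were called with age, both amylase genes added, and 2 (Amy-p and Amy-d) in the Zn72d set; Amy-p was called after Adar knockdown (adjusted p = 0.0445). Over all genes the block gave 420 for Zn72d and 9 for labelled E374A.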

Other observations

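Mal-A1 stood in a lower proportion to its cluster member Mal-A8 after Zn72d knockdown, although neither gene was called. The ratio of Mal-A1 to Mal-A8 was 3.35, 3.81 and 3.62 in Zn72d knockdown libraries 1 to 3, against 5.63, 5.74 and 7.30 in controls. All knockdown libraries were below all controls, and Mal-A8 held 10.9 to 11.3% of the summed maltase TPM after knockdown and 6.02 to 8.27% in controls. In labelled E374A controls 1 and 2, where Adar was at 879 and 801 TPM, the ratio was 4.11 and 4.63. This ratio was chosen after its values were seen, and it was not tested. Among single genes 19.8% were lower in every Zn72d knockdown library than in every control. The share of other ratios of genes that did not overlap was not counted.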
